A study of Mus musculus with 18 samples.

Results

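The comparison set testosterone against placebo in the submandibular gland, the salivary gland under the jaw, of castrated male mice. It used 6 of the 18 arrays of the study: 3 arrays labelled submandibular gland and testosterone-treated, and 3 labelled submandibular gland and placebo-treated, chosen by those labels alone. All 6 arrays came from orchiectomised male BALB/c mice that carried a hormone pellet, with testosterone or with placebo, for 21 days. The labels give no age for these animals. The removal of the testes was thus shared by both groups, and the placebo group was a castrate and not an intact male. Each array measured RNA of 1 pool, which the labels describe as 10 glands from 5 animals although they also speak of 4 animals per sex and experiment. The 3 pools of a group were separate and are lettered A, B and C. The other 12 arrays measured the lacrimal and the meibomian glands of mice treated alike and were used here only to test where the submandibular response differed.

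In rodents the submandibular gland is one of the organs whose structure depends most on androgens. Its granular convoluted tubules, a stretch of duct that stores growth factors, kallikreins and other proteases in large granules, are larger in males than in females and shrink after castration. Steroid hormones act through nuclear receptors, which bind DNA elements built from a short repeated site. The acini of the gland make the fluid and most of the other salivary proteins, the ducts take back salt and secrete bicarbonate, and myoepithelial cells squeeze the acini.

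Values are intensities of a 1-colour array on the scale the authors deposited, and each array's median lay between 0.940 and 0.948 on these 6 arrays. Of 10500 probes 6468 were tested, and 5688 of them named 1 of 5615 genes. Changes are log2 testosterone minus placebo ± SE on the scale of log2(intensity + 0.230), which understates the change of dim probes. A change was called where limma's adjusted p (Benjamini-Hochberg over all tested probes) was at most 0.05 with n = 3 pools per group. The p-values measure only the spread among these pools. The number of arrays limits their precision, with 4 residual degrees of freedom. The median SD within a group on the log2 scale was 0.189 for placebo and 0.178 for testosterone. Spearman correlations over probes ran from 0.926 to 0.952 within placebo, from 0.894 to 0.937 within testosterone and from 0.864 to 0.935 between the groups. The groups' ranges overlapped, and the value of 0.935 joined testosterone pool B with placebo pool A. Single arrays also held isolated low values, defined as a value more than 16-fold below both other pools of the group where those were above 5. Testosterone pool A had 35 of these, testosterone pool C 34, placebo pool C 16, placebo pool A 9, and both pools B had 0. Of the ribosomal gene Rpl36a, for instance, testosterone pool A read 1.17 and the other 5 pools read 159 to 206. Their part in the results was not tested beyond leaving them out, which gave 529 calls.

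The label of the tissue was checked against its defining markers. The kallikrein Klk1b5, a serine protease of the granular tubule, read 687 ± 49.7 (SD, n = 3) in placebo submandibular gland, 5.25 ± 8.17 in placebo lacrimal gland and 0.238 ± 0.0697 in placebo meibomian gland. For Egf, epidermal growth factor, the same groups read 35.2 ± 2.53, 3.49 ± 1.35 and 0.0706 ± 0.0262. Salivary amylase, Amy1, read 257 ± 23.9, 42.0 ± 67.2 and 0.333 ± 0.0567. Klk1b5, Egf and Amy1 were each highest in the submandibular gland. Several other acinar genes, described further on, had a higher mean in placebo lacrimal than in placebo submandibular gland. Lpo read 493 and 150, Car6 547 and 509, and Bhlha15 13.3 and 7.75, and Aqp5 was higher in the lacrimal gland too. Mucl1 went the other way, with 0.272 and 2.34. The acinar genes thus did not all set this gland apart from the lacrimal gland. The SDs in the lacrimal gland reflect pools that read up to 119.7 for Amy1 and 14.7 for Klk1b5 with placebo and up to 85.6 and 10.7 with testosterone, and the part of such pools in comparisons with the lacrimal gland was not tested. Probes named for Klk1, Klk1b22, Ren1, Bpifa2, Dcpp1, Muc19 and Smgc were not found in the table used here, so these genes were not analysed here. The probe of Klk1b24 held the code for no value on all 6 submandibular arrays.

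Testosterone moved the submandibular profile upward more often than downward. Of the 6468 probes 456 were called (7.05%), 328 of them higher (5.07%) and 128 lower (1.98%). The median change was 1.05 among those higher and -0.87 among those lower, against 0.02 over all tested probes. At least 2-fold changes numbered 179 higher and 48 lower, and at least 4-fold changes 49 higher and 3 lower. The pools of the groups did not overlap for any called probe, a property that 1992 of all tested probes had (30.8%). In bulk tissue a change in the number of cells of a type and a change in RNA per cell cannot be told apart. The count fell to 164 without placebo pool B, 178 without testosterone pool A, 196 without placebo pool C and 199 without testosterone pool C. It was 398 without placebo pool A, of which 309 were among the 456, and 328 without testosterone pool B, of which 297 were. Leaving out an array also leaves fewer residual degrees of freedom. Genes whose call was lost in such a fit are named with the pool in the paragraphs that follow. Of the 97 called genes that the naming rule chose 56 kept their call whichever pool was left out. That rule favours large changes, so their share does not hold for all calls. Of all 456 calls 161 were kept without placebo pool B alone.

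**Figure D1:**
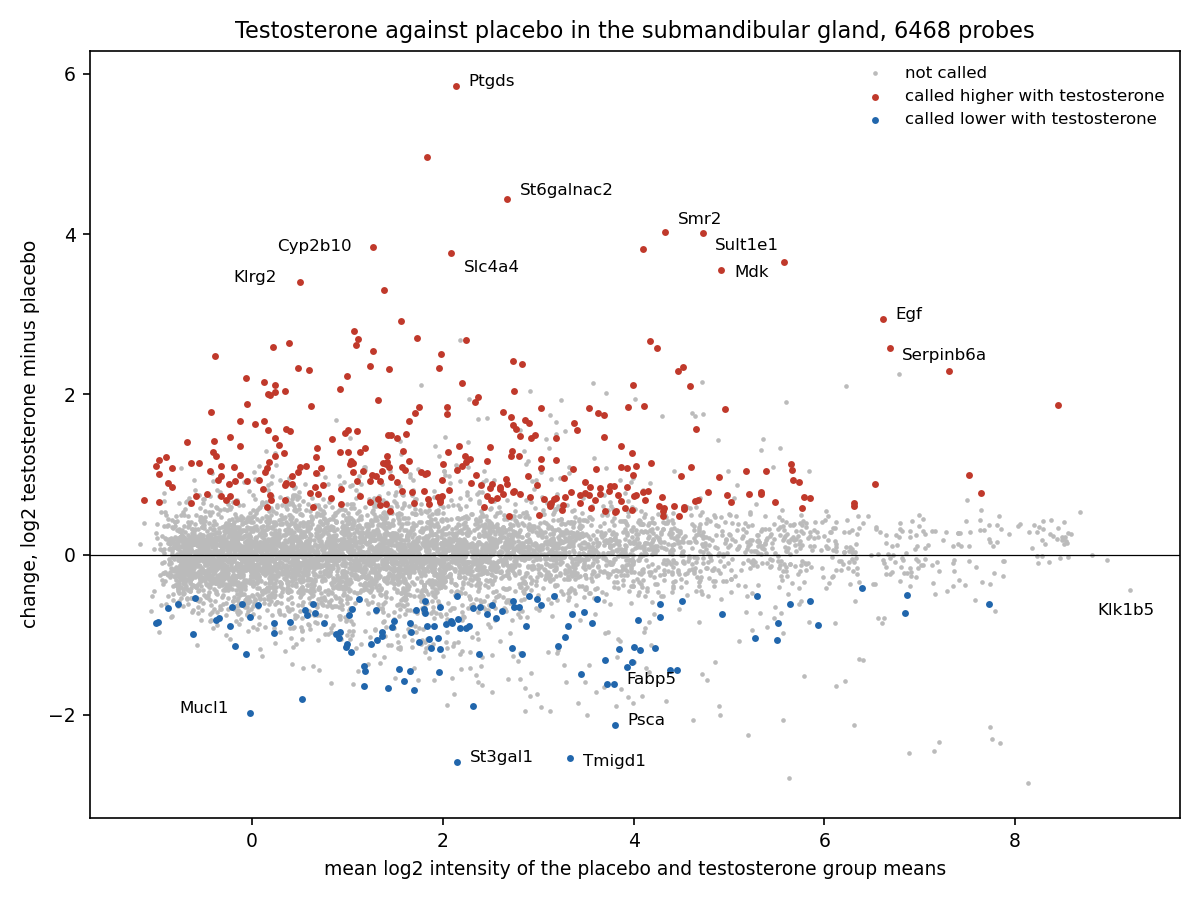
Change with testosterone (vertical axis, log2 testosterone minus placebo) against mean log2 intensity of the group means (horizontal axis) for the 6468 tested submandibular probes, with 328 called higher in red, 128 called lower in blue and the rest in grey. Ptgds lies farthest up at 5.85, St3gal1 lowest among the called probes at -2.59, and Klk1b5 far to the right at -0.44, not called.

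The granular tubule list held 4 tested probes, Egf, Smr2, Klk1b5 and Tgfa, of which 2 rose and none fell. Its median change of 1.43 lies between the change of Egf and that of Tgfa, -0.09 ± 0.22 and not called, and so describes neither. Egf read 33.7, 38.2 and 33.9 with placebo and 289.7, 261 and 268 with testosterone (pools in the order A, B, C, here and for every gene). Every testosterone pool was thus far above every placebo pool, and the change was 2.94 ± 0.10 (limma, adjusted p = 1.06e-04). Smr2, a salivary protein gene named for its regulation by androgens in this gland, read 4.50, 5.11 and 4.94 with placebo and 99.4, 69.7 and 80.7 with testosterone. It rose by 4.02 ± 0.15 (limma, adjusted p = 1.15e-04), again with no overlap.

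Neither tested kallikrein, Klk1b5 or Klk11, was called. Klk1b5 read 647, 672 and 743 with placebo and 497, 568 and 462 with testosterone. The pools did not overlap and all 3 testosterone pools were lower, but the change of -0.44 ± 0.12 did not pass the test (limma, adjusted p = 0.0845). On each of the 3 placebo arrays the Klk1b5 value was also the highest of the array, and whether it lay near the top of the scanner's range was not tested. Klk11, a kallikrein outside the Klk1b cluster, read 5.35, 4.35 and 4.6 with placebo and 3.32, 3.06 and 2.95 with testosterone, a change of -0.58 ± 0.13 just short of the threshold (limma, adjusted p = 0.0504). It passed in 8 of 19 alternatives, with an adjusted p of 0.0173 to 0.135 over them, and Klk1b5 passed in 1, with array weights (0.0425 to 0.807 over the 19).

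The rise of Ptgds was the largest of all probes. Ptgds encodes lipocalin-type prostaglandin D synthase, a secreted enzyme that also carries lipophilic molecules. It read 0.456, 0.417 and 0.551 in the placebo pools and 47.9, 32.2 and 42.6 in the testosterone pools, a ratio of means of 86.2. The placebo values lay below the array medians and the testosterone values well above them. The change was 5.85 ± 0.18 (limma, adjusted p = 8.76e-05), and it ran from 4.89 to 6.26 over the alternatives because the size of a change from a dim level moves with the offset. Ttr, transthyretin, a carrier of thyroid hormone and retinol-binding protein, rose by 2.91 ± 0.14, from 0.921, 1.04 and 0.967 to 9.88, 7.56 and 9.26. They were the 2 called members of the list of prostaglandin enzymes and lipophilic carriers, of 13 tested, with 0 lower and a list median of 0.11.

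Sult1e1 and Cyp2b10 were among the largest rises. Sult1e1, the sulfotransferase that inactivates oestrogens, read 6.38, 6.83 and 5.98 with placebo and 114, 76.3 and 138 with testosterone, a rise of 4.01 ± 0.22 (limma, adjusted p = 3.58e-04). Cyp2b10, a cytochrome P450, rose by 3.84 ± 0.25, from 0.716, 0.485 and 0.410 to 11.7, 7.74 and 13.1. In both genes the lowest testosterone pool was B, and it still read over 10 times the highest placebo pool. Hsd17b3, an enzyme known for the last step of testosterone synthesis in the testis, read 0.273, 0.385 and 0.405 with placebo and 2.29, 1.64 and 3.82 with testosterone, a rise of 2.20 ± 0.29. Of 11 tested probes of steroid enzymes and receptors only Sult1e1 and Hsd17b3 were called, and the list's median change was 0.06.

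The promoters of the leading genes were searched on both strands for AGAACA, a hexamer that some steroid hormone receptors recognise. They were also searched for the full element, which is the hexamer, any 3 bases and the reverse complement of the hexamer. The RefSeq promoter table (GRCm38.p6) holds 250 bases before and 50 after each start, and 5 of the 8 genes chosen by size of change were in it. None of the windows of Ptgds, Smr2, Sult1e1, Cyp2b10 and Tmigd1 held a hexamer, whereas 6232 of all 32841 promoters did (19%). Among the genes called higher, 34 of 306 promoters held one (11.1%), among those called lower 21 of 123 (17.1%), and among all tested genes 745 of 5858 (12.7%). These letters can be missing from a short window and present farther away, so nothing follows about any receptor. A full element stood in 3 of the 32841 promoters (0.00913%) and in 1 promoter of the tested genes, that of 1 of 6 listed starts of Sgk1, a kinase described with the androgen-responsive genes further on; it was chosen for display after this was seen. The stretches shown are the 250 bases before the start. They are shown because Sgk1 carries the element and because Ptgds and Cyp2b10, which rose most among genes with a listed promoter and a dim placebo level, carry none. In Sgk1 capitals mark the 3 hexamers, which begin 242, 189 and 180 bases before the start, and the last 2 form the element. In Ptgds and Cyp2b10 capitals mark the letters ATAAA, looked at after the sequences were seen, which begin 29 and 27 bases before the start, the usual place of a TATA box. ATAAA lies within 40 bases before the start in 1808 of all promoters (5.51%).
Sgk1, chr10:21993640-21993889, + strand: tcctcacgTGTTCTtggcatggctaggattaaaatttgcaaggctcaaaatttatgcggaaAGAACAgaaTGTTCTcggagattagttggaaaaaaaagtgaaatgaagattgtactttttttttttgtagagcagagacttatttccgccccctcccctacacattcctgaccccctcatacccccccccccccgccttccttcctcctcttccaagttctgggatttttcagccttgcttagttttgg
Ptgds, chr2:25469750-25469999, - strand: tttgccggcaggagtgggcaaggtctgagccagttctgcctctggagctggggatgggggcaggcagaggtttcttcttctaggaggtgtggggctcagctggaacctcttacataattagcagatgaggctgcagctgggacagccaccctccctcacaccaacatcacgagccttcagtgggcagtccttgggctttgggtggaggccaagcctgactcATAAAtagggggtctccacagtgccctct
Cyp2b10, chr7:25897408-25897657, + strand: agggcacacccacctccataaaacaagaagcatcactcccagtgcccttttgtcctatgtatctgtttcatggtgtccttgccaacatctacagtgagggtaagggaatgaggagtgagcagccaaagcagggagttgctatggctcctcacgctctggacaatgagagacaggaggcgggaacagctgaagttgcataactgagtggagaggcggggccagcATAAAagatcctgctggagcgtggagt

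**Figure D2:**
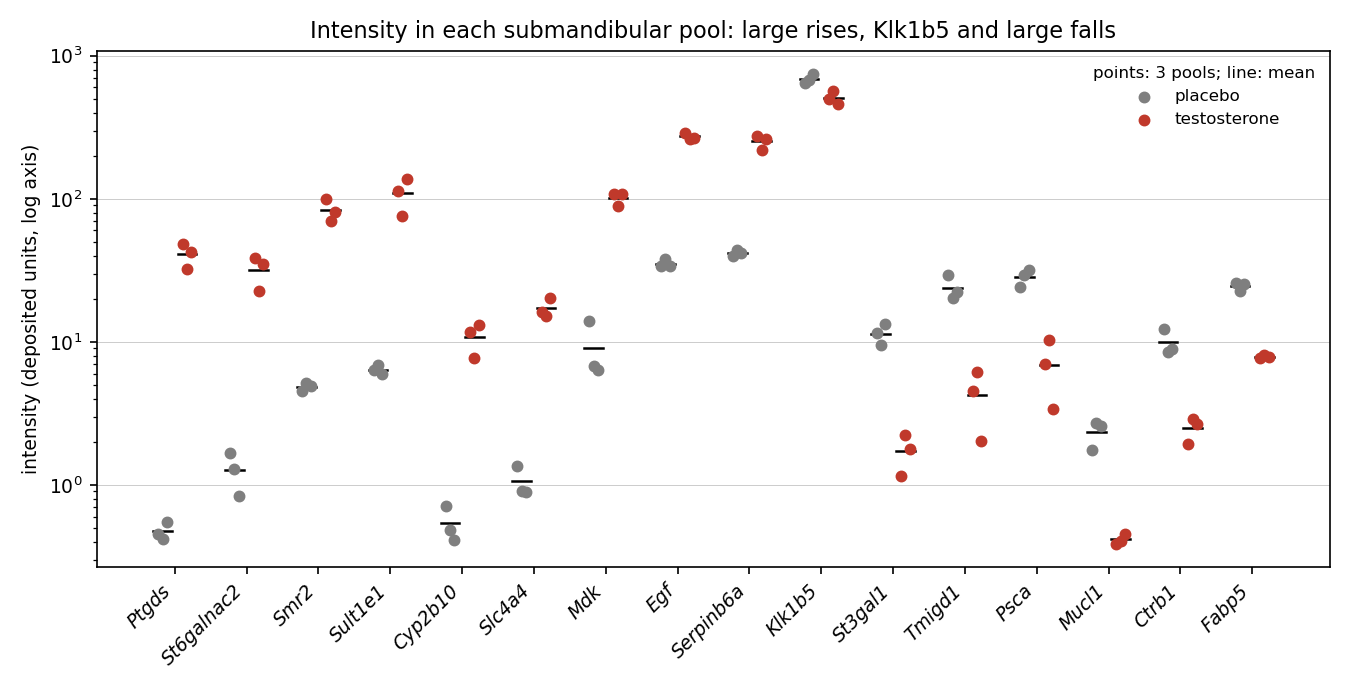
Intensity (vertical log axis, deposited units) in each of the 3 placebo pools (grey) and 3 testosterone pools (red) for 16 genes, with a line at each group's mean. No gene's groups overlap: Ptgds goes from 0.475 to 40.9 and Egf from 35.2 to 272.7, Fabp5 goes down from 24.6 to 7.87, and Klk1b5 goes from 687 to 509 without passing the test.

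Genes known to respond to androgens or glucocorticoids in other tissues were examined next. Of 24 tested probes 4 rose and 1 fell, with a median change of 0.12. Fkbp5, a co-chaperone of steroid receptors that many steroid-treated tissues induce, read 1.19, 1.33 and 0.327 with placebo and 6.40, 4.65 and 7.31 with testosterone. It rose by 2.54 ± 0.41 (limma, adjusted p = 0.0176), and the call was lost without testosterone pool A or C (adjusted p = 0.0595 to 0.0596). Sgk1, the serum- and glucocorticoid-regulated kinase, which raises sodium channel activity, rose by 1.77 ± 0.22, from 6.49, 6.19 and 6.91 to 26.5, 15.9 and 28.0. Every testosterone pool was above every placebo pool in both genes. Cyp2b10 and Plpp1, a lipid phosphate phosphatase, were the other members that rose, and Plpp1 at 0.70 ± 0.11 was lost in 4 of the 6 fits that leave out a pool (without placebo B or C, or testosterone A or C, adjusted p = 0.0532 to 0.0593). Spdef, a transcription factor of secretory epithelia, fell by 1.24.

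Among growth factors and their receptors 7 of 30 tested probes rose and 2 fell, with a median change of 0.02. Mdk, midkine, a heparin-binding growth factor, read 14.0, 6.80 and 6.31 with placebo and 107, 89.3 and 108 with testosterone and rose by 3.55 ± 0.30 (limma, adjusted p = 0.00184). Vegfa, the main growth factor of blood vessels, rose by 2.12 ± 0.18, from 6.71, 8.03 and 7.83 to 30.8, 27.8 and 43.3. Tgfb2, a ligand of the transforming growth factor family, rose by 2.33 ± 0.22, from 1.90, 1.88 and 1.18 to 11.3, 8.05 and 8.31. None of these groups overlapped. Egf, Tgfb3 at 1.13 ± 0.15, Fgf1 at 1.09 ± 0.18 and Pdgfa at 1.23 ± 0.20 completed the 7, and Pdgfa lost its call without placebo pool B or C or testosterone pool C (adjusted p = 0.0581 to 0.0761) and Fgf1 without these or testosterone pool A (0.0616 to 0.0781). The 2 that fell were Ptn, pleiotrophin, the close relative of midkine, at -0.85 ± 0.16 (limma, adjusted p = 0.0303), and Igfbp5, a binding protein of insulin-like growth factors, at -1.0 ± 0.22 (0.0444). Both falls were lost without placebo pool B or C or testosterone pool A or C, and that of Igfbp5 also without testosterone pool B (0.0793 to 0.133). Tgfa, a ligand of the same receptor as Egf, read 1.44 ± 0.285 with placebo and 1.36 ± 0.384 with testosterone and was not called (limma, adjusted p = 0.838).

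Enzymes that add sialic acid to secreted glycans moved in opposite directions. Sialic acid is the terminal sugar that gives salivary mucins much of their charge. St6galnac2, which links it to the N-acetylgalactosamine of O-glycans, read 1.68, 1.29 and 0.832 with placebo and 38.4, 22.7 and 34.9 with testosterone, a rise of 4.43 ± 0.28 (limma, adjusted p = 5.71e-04). St3gal1, which links it to the galactose of the same O-glycan core, read 11.4, 9.45 and 13.2 with placebo and 1.16, 2.25 and 1.78 with testosterone, a fall of 2.59 ± 0.24 (0.00234), the largest of all called falls. The groups were far apart in both. St3gal5, the GM3 ganglioside synthase, rose by 1.78 ± 0.17, from 2.87, 3.30 and 3.56 to 12.9, 9.27 and 13.3. Gne, the enzyme that starts sialic acid synthesis, fell by 1.34 ± 0.12, from 24.6, 23.9 and 27.2 to 10.1, 10.7 and 8.75. St6galnac1 rose by 1.22 ± 0.20, a call lost without placebo pool C or testosterone pool A or C (adjusted p = 0.0588 to 0.0646), and B3gnt3, which extends O-glycans, fell by 0.68 ± 0.15 (0.0470), lost when any 1 pool was left out (0.0733 to 0.133). Of 26 tested probes of the glycosyltransferase list 3 rose and 3 fell, with a median of 0.02.

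Of 18 tested probes of the acinar secretory list 0 rose and 3 fell, with a median change of -0.15. Another 5 were lower and 2, Vamp8 and Cst3, higher in all 3 testosterone pools without a call. At an unadjusted p under 0.05 there were 2 higher and 5 lower, while the fit over all 18 arrays called 1 and 2. Mucl1, a mucin-like secreted protein, read 1.75, 2.69 and 2.58 with placebo and 0.389, 0.403 and 0.453 with testosterone and fell by 1.97 ± 0.18 (limma, adjusted p = 0.00234). Spdef read 10.3, 10.6 and 12.2 with placebo and 5.15, 5.14 and 3.54 with testosterone, a fall of 1.24 ± 0.17. Agr2, a disulfide isomerase that helps mucins fold, fell by 0.89 ± 0.11, from 13.5, 12.7 and 14.7 to 7.37, 7.72 and 6.68. The groups were apart in all 3 genes. The abundant acinar products were not called: Car6, the secreted carbonic anhydrase, read 509 ± 31.6 and 494 ± 117, and lactoperoxidase, Lpo, 150 ± 14.0 and 140.9 ± 8.69. Amy1 read 257 ± 23.9 and 338 ± 80.5, and the water channel Aqp5 23 ± 0.858 and 19.5 ± 1.80. Bhlha15, the transcription factor Mist1 of mature acinar cells, read 7.75 ± 0.986 and 4.39 ± 1.10 with pools apart and was not called (limma, adjusted p = 0.0692).

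Transporters of salt and bicarbonate included 1 of the largest rises. Slc4a4, a sodium-bicarbonate cotransporter, read 1.36, 0.912 and 0.895 with placebo and 16.2, 15.1 and 20.1 with testosterone and rose by 3.76 ± 0.19 (limma, adjusted p = 2.80e-04). Scnn1b and Scnn1g, the beta and gamma subunits of the epithelial sodium channel through which ducts take back sodium, rose by 0.91 ± 0.13 and 0.82 ± 0.18. Scnn1b lost its call without placebo pool B or C (adjusted p = 0.0541 to 0.0588), and Scnn1g when any pool except testosterone B was left out (0.0864 to 0.139). The chloride channel Clcn2 rose by 1.11 ± 0.23 and lost its call when any pool except placebo A was left out (0.0656 to 0.111). In total 4 of 22 tested probes of ion and water transport rose and 0 fell, with a median of 0.18. Including the 4 called, 7 probes were higher in every testosterone pool. Another 5 were lower in every testosterone pool without a call. The list's summed intensity was 511 to 592 in placebo pools and 415 to 496 in testosterone pools. The largest part of that sum, Fxyd2, a regulator of the sodium pump, read 273, 286 and 278 with placebo and 153, 224 and 149 with testosterone and was not called (limma, adjusted p = 0.0627). In the list 6 probes were higher and 4 lower at an unadjusted p under 0.05, while the joint fit called 4 higher and 2 lower. Of Slc12a2, the cotransporter that drives fluid secretion, placebo pool C held an isolated low value of 0.316, and its group mean is not comparable.

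Of 11 tested probes of the smooth muscle and myoepithelium list 6 rose and 0 fell, with a median change of 0.66, against 5.07% and 1.98% of all probes. Of the others Csrp1 and Tpm2 were higher and Tpm1 was lower in every testosterone pool without a call. Cnn1, calponin, an actin-binding protein of smooth muscle and myoepithelium, read 32.2, 32.4 and 37.0 with placebo and 70.1, 72.4 and 80.7 with testosterone, a rise of 1.13 ± 0.11 (limma, adjusted p = 0.00289). Myh11, smooth muscle myosin, rose by 1.11 ± 0.11, from 10.9, 11.5 and 10.7 to 26.6, 22.1 and 23.4. Tagln, transgelin, rose by 1.64 ± 0.17, from 5.59, 5.04 and 6.77 to 22.3, 17.0 and 16.6. Every testosterone pool of these genes read at least 2 times the placebo mean. Acta2, smooth muscle actin, rose by 0.99 ± 0.20 and Actg2, its enteric form, by 0.85 ± 0.15; both calls were lost when any pool except testosterone B was left out (adjusted p = 0.0613 to 0.115 and 0.0532 to 0.0895). Smtn, smoothelin, rose by 0.66 (limma, adjusted p = 0.0308), a call lost when any 1 pool was left out (0.0605 to 0.111). The 6 calls went down to 3 without placebo pool A, B or C or testosterone pool A or C and to 5 without testosterone pool B. The summed intensity of the 11 probes was 75.8 to 84.3 in the placebo pools and 154 to 176 in the testosterone pools. The list mixes vessel wall muscle and myoepithelium, and which of them carried the change was not tested.

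Genes of the extracellular matrix rose as well. Of 35 tested probes of the fibroblast and matrix list 12 rose and 0 fell, and 25 were higher in every testosterone pool with 0 lower in every one. The median change was 0.77. The largest change of the list was that of Ccn1, 2.68 ± 0.67, which was not called (limma, adjusted p = 0.0641). It read 2.73, 2.82 and 0.290 with placebo and 9.65, 10.8 and 11.2 with testosterone, and passed in 5 of 19 alternatives. Timp3, an inhibitor of matrix proteases, read 4.20, 4.18 and 3.91 with placebo and 12.4, 10.4 and 13 with testosterone and rose by 1.48 ± 0.13 (limma, adjusted p = 0.00184). Mgp, matrix Gla protein, rose by 1.27 ± 0.12, from 10.8, 9.97 and 9.52 to 24.0, 27.4 and 22.8. The collagen-binding protein Sparc went from 10.5 ± 0.967 to 22.3 ± 1.22, a rise of 1.08 ± 0.11. Collagen genes were among the 12, with Col1a1 at 0.88 ± 0.14, Col1a2 at 0.92 ± 0.15, Col5a2 at 0.92 and Col4a2 at 0.73. Col1a1 and Col1a2 were dim, with placebo values below the array medians. Col1a1 went from 0.573 ± 0.0510 to 1.25 ± 0.163 and Col1a2 from 0.593 ± 0.132 to 1.32 ± 0.0336. Lama2, a laminin chain, rose by 0.84, and S100a4, a calcium-binding protein of fibroblasts and other cells, by 0.80. The calls of Col1a1, Col1a2, Col5a2, Col4a2, Lama2 and S100a4 were each lost without placebo pool B, testosterone pool A and at least 2 others in turn (adjusted p = 0.0543 to 0.138), while Timp3, Mgp and Sparc kept theirs whichever pool was left out. Postn, periostin, rose by 1.23 ± 0.18 but not without placebo pool B (adjusted p = 0.0595). Thbs1, thrombospondin, at 1.19 ± 0.19 lost its call when placebo pool B or any testosterone pool was left out (0.0504 to 0.0588), and Tnc, tenascin, at 1.10 ± 0.24 when any pool except testosterone B was left out (0.0747 to 0.142). The small proteoglycans decorin, Dcn, at 0.02 ± 0.13 and lumican, Lum, at -0.10 ± 0.14 were not called. The count was also 12 without placebo pool A, where Tnc, Lama2 and Col4a2 lost their call, and it was 3 without placebo pool B, 7 without placebo pool C and 4, 7 and 5 without testosterone pools A, B and C. The summed intensity of the list was 112 to 128 with placebo and 196 to 209.7 with testosterone.

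**Figure D3:**
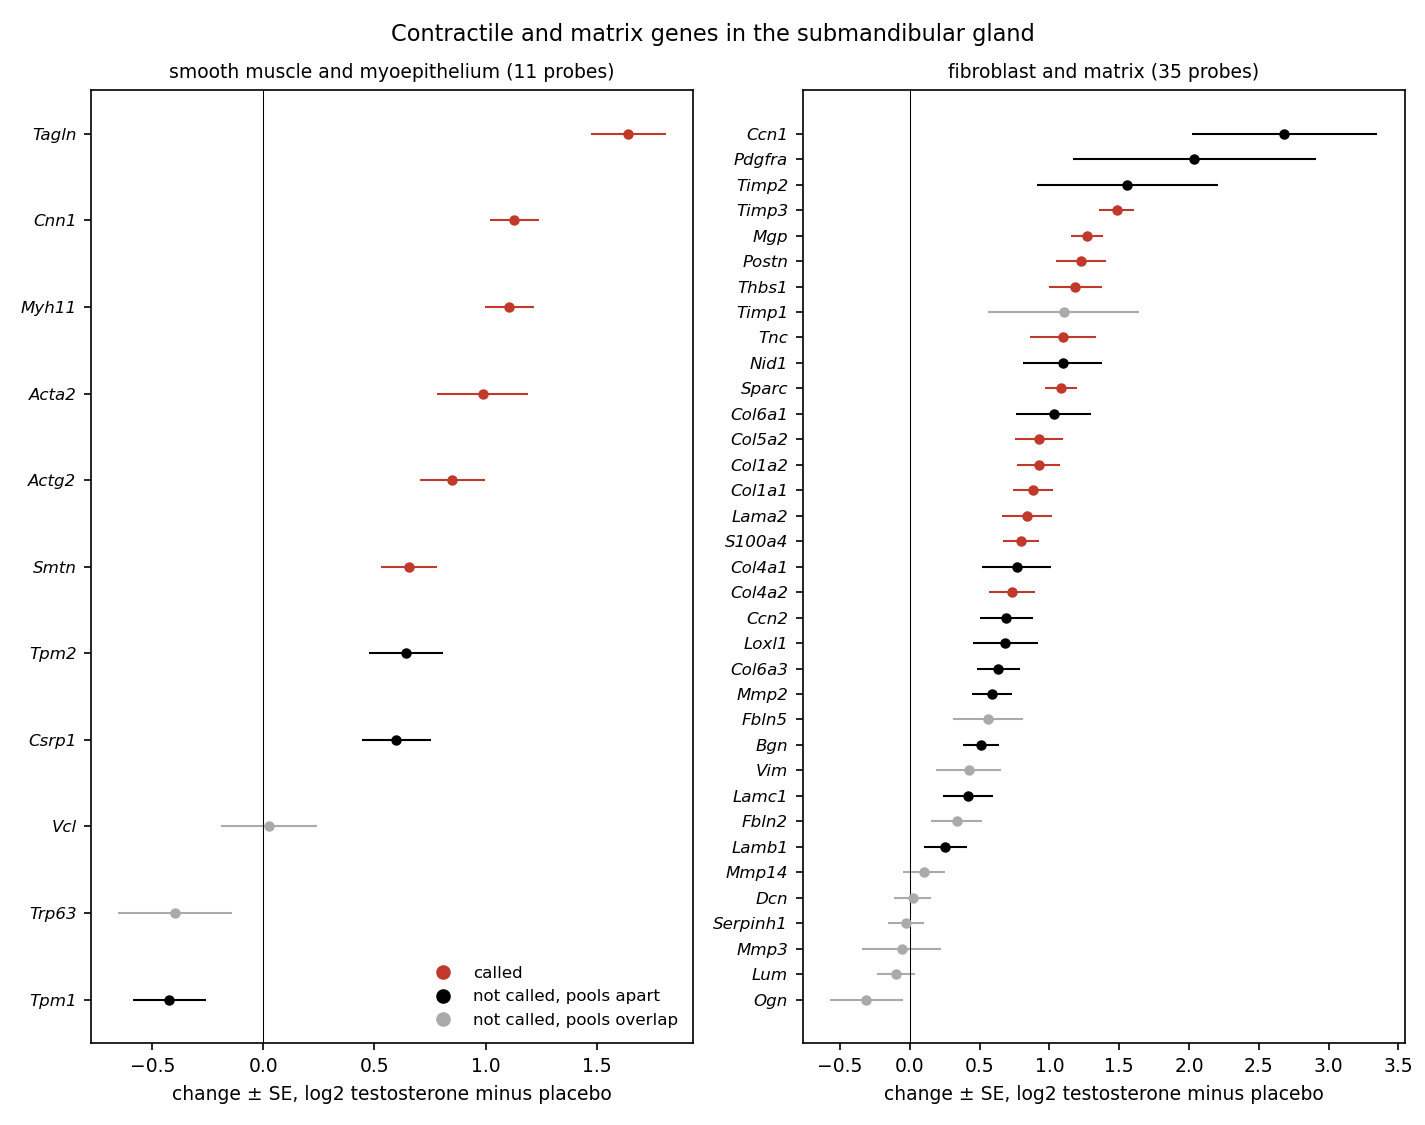
Change with testosterone ± SE (horizontal axes, log2) of the 11 tested probes of the smooth muscle and myoepithelium list (left) and the 35 of the fibroblast and matrix list (right), in red where called, in black where only the pools were apart and in grey where pools overlapped. The red points, 6 on the left and 12 on the right, all lie above 0.

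Secretory machinery rose in part. Of 64 tested probes of the endoplasmic reticulum list 7 rose and 0 fell, with a median of 0.21, and 25 were higher at an unadjusted p under 0.05. Ero1a, the oxidase that supplies disulfide bonds, read 2.30, 1.93 and 2.22 with placebo and 8.80, 5.91 and 9.09 with testosterone and rose by 1.76 ± 0.19 (limma, adjusted p = 0.00398). Ddit3, a transcription factor of the unfolded protein response, rose by 1.04 ± 0.14, from 1.54, 1.32 and 1.65 to 3.13, 3.38 and 3.46. Hsp90b1, the chaperone Grp94, rose by 0.64 ± 0.12, from 63.4 ± 1.23 to 99.6 ± 13.4, and Sdf2l1, a cofactor of such chaperones, by 0.69 ± 0.11. Both were lost without placebo pool B or C or testosterone pool A or C, and Hsp90b1 also without placebo pool A (adjusted p = 0.0543 to 0.110). Pdia4, a disulfide isomerase, at 0.89 ± 0.14, Ssr4, part of the translocon, at 0.76 ± 0.17 and Manf, a secreted stress factor, at 0.72 ± 0.15 each lost the call without 3 or more of the 6 pools, among them placebo B and C (adjusted p = 0.0510 to 0.129). The list's count was 2 to 6 when a pool was left out. Of 23 tested probes of granule and exocytosis machinery 3 rose and 0 fell, with a median of 0.32: Snap23 at 0.72, Cpe, a carboxypeptidase that processes peptide hormones, at 0.65, and Anxa7 at 0.56. Each of these 3 calls was lost without placebo pool B or C, testosterone pool A or C, and some others (adjusted p = 0.0634 to 0.159).

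Detoxifying enzymes gave 8 rises and 1 fall among 39 tested probes, with a median of 0.19. Gclc, the catalytic subunit of the first enzyme of glutathione synthesis, read 4.24, 4.37 and 4.06 with placebo and 16, 13.4 and 17.9 with testosterone and rose by 1.84 ± 0.14 (limma, adjusted p = 0.00118). Aldh1a7, an aldehyde dehydrogenase, rose by 1.36 ± 0.17, from 2.89, 2.59 and 2.70 to 7.91, 5.76 and 8.63. Cyp2e1, a P450 of ethanol and small solvents, rose by 1.09 ± 0.19 and Gpx1, glutathione peroxidase, by 0.89 ± 0.13. Their calls were lost when any pool except placebo C was left out (adjusted p = 0.0545 to 0.0780) and without placebo pool B (0.0646). Gstm1, a glutathione transferase, fell by 0.72 ± 0.13, from 14.4 ± 1.70 to 8.63 ± 0.656, a call lost when any pool except testosterone B was left out (0.0517 to 0.0861). The other rises were Cyp2b10, which kept its call, and Aldh1a1, Cyp1b1 and Hmox1, which were lost without most pools, among them all placebo pools and testosterone A and C (0.0683 to 0.159), and the count was 3 to 5 when a pool was left out.

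The largest rises in the list of proteases and their inhibitors were of inhibitors. Serpinb6a, an intracellular serpin, read 40, 43.6 and 42.0 with placebo and 276, 219 and 263 with testosterone and rose by 2.58 ± 0.12 (limma, adjusted p = 2.80e-04). Serpinb1a, which inhibits neutrophil proteases, rose by 1.82 ± 0.22, from 20, 17.0 and 12.4 to 65.8, 46.3 and 63.0. The pools of both genes were far apart. Spint1, which inhibits epithelial serine proteases, at 0.76 ± 0.12, cathepsin D, Ctsd, at 0.78 ± 0.12 and Prss12, a serine protease, at 1.14 ± 0.25 lost the call without placebo pool B or C and, for Spint1 and Prss12, without further pools (adjusted p = 0.0557 to 0.107). The list counted 5 rises and 0 falls among 25 probes, with a median of 0.50.

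Other leading rises were Klrg2, a lectin-like receptor, at 3.40 ± 0.31, Tmem37, a membrane protein related to calcium channel subunits, at 3.30 ± 0.29, and Sgca, alpha-sarcoglycan, at 2.79 ± 0.16. Epha4, an ephrin receptor, rose by 2.71 ± 0.14, Smim3, a small membrane protein, by 2.69 ± 0.20 and P2ry14, a receptor for UDP-sugars, by 2.67 ± 0.21. Slc27a2, an enzyme that activates long fatty acids, rose by 2.64 ± 0.30, and Serpina1d, a secreted antitrypsin, by 2.59 ± 0.36. Gadd45a, a growth arrest gene, read 7.66, 7.71 and 7.48 with placebo and 48.1, 40.6 and 52.1 with testosterone, so that its placebo pools were within a few percent of each other and all testosterone pools over 5 times higher.

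The largest falls after St3gal1 were in genes of varied function. Tmigd1, an adhesion protein of epithelia, read 29.1, 20.2 and 22.4 with placebo and 4.53, 6.19 and 2.03 with testosterone, a fall of 2.54 ± 0.38 (limma, adjusted p = 0.0135) that lost its call without placebo pool B (0.0526). Psca, a surface protein of secretory epithelia, read 24.1, 29.4 and 31.7 with placebo and 7.03, 10.2 and 3.36 with testosterone, a fall of 2.13 ± 0.37 that lost its call when any placebo pool or testosterone pool A was left out (0.0517 to 0.0913). Ctrb1, the digestive proenzyme chymotrypsinogen, fell by 1.89 ± 0.21, from 12.3, 8.46 and 8.92 to 1.94, 2.89 and 2.66. Every testosterone pool of these 3 genes was lower than every placebo pool. Ctrb1 was the only call among 5 tested digestive enzymes. Rap1gap, which switches off the small GTPase Rap1, fell by 1.66 ± 0.21 and Slc37a2, a sugar-phosphate transporter, by 1.69 ± 0.15. Foxo1, a transcription factor restrained by insulin, fell by 1.64 ± 0.35, a call lost without placebo pool B or C or testosterone pool A or B (0.103 to 0.124). Ppp1r3c, which targets a phosphatase to glycogen, fell by 1.58 ± 0.27, a call lost without placebo pool B or C or testosterone pool C (0.0581 to 0.0842), and Fmnl1, a formin, by 1.43 ± 0.31, lost when any placebo pool or testosterone pool A was left out (0.0869 to 0.121). Ccnt1, the cyclin partner of the elongation kinase Cdk9, fell by 1.41 ± 0.14, from 25.5, 22.9 and 26.4 to 9.27, 10.8 and 7.86.

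Several genes of lipid handling fell. Fabp5, an epithelial fatty acid binding protein, read 25.7, 22.6 and 25.4 with placebo and 7.73, 8.07 and 7.82 with testosterone and fell by 1.61 ± 0.10 (limma, adjusted p = 5.71e-04). Hilpda, a protein of lipid droplets, fell by 1.81 ± 0.19, from 2.59, 2.90 and 3.45 to 0.811, 0.759 and 0.506. Scd1, the desaturase that makes oleate, read 23.6, 18.7 and 18.3 with placebo and 6.46, 12.7 and 5.96 with testosterone, a fall of 1.32 ± 0.29 (limma, adjusted p = 0.0467). Testosterone pool B of Scd1 was nearer to the placebo pools than A and C, and the call was lost when any pool except testosterone B was left out (0.0992 to 0.130). Of 25 tested probes of fatty acid and glycerolipid synthesis 0 rose and 2 fell, with a median of -0.32. Of 24 of fatty acid oxidation and the peroxisome none was called by limma, with a median of -0.30, 0 higher and 6 lower at an unadjusted p under 0.05 and 0 higher and 4 lower in the joint fit of all 18 arrays. Fat cell markers were looked at as well, and their changes ran from -1.71 to 1.12. Only 1 was lower and 0 were higher in every testosterone pool. Of 9 adipocyte probes 0 were called (limma; 0 higher and 2 lower at an unadjusted p under 0.05, and 0 and 2 in the joint fit), but their median was -0.72 and their summed intensity ran from 77.7 to 172 with placebo and from 63.5 to 68.7 with testosterone. Adipoq, adiponectin, read 3.34, 18.4 and 33.9 with placebo and 0.218, 12.3 and 11.3 with testosterone, where 0.218 is one of the isolated low values, and Fabp4 37.0, 53.1 and 90.2 against 38.3, 29.2 and 30.6. With such values left out the list had 1 lower call and a median of -0.55. No adipocyte marker was at 0, the lowest group mean being 0.454. The part of fat tissue in the lipid genes was not tested. Skeletal muscle markers summed to 10.3 to 19.1 with placebo and 8.81 to 9.71 with testosterone, with 0 of 9 called by limma, 0 higher and 4 lower at an unadjusted p under 0.05 and 0 and 2 in the joint fit.

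Duct and epithelial structure genes moved both ways, with 3 of 25 higher, 2 lower and a median of 0.17. Krt7, a duct keratin, rose by 1.05 ± 0.11, from 38.2, 35.5 and 31.7 to 75, 67.7 and 76.3. Elf5, a transcription factor of glandular epithelium, fell by 0.88 ± 0.10, from 10.2, 9.77 and 10.2 to 5.36, 5.28 and 5.36. Both were well separated. The tight junction genes Cldn7 at 0.73 ± 0.11 and Ocln at 0.61 ± 0.13 rose, the former not without placebo pool B or C or testosterone pool A (adjusted p = 0.0535 to 0.0566) and the latter not when any 1 of the 6 pools was left out (0.0621 to 0.142).

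A few immune markers rose. Of 20 probes of macrophages and MHC class II 4 rose and 0 fell, with a median of 0.33, and the list's summed intensity was 106 to 118 with placebo and 131 to 134 with testosterone. Cd14, a receptor for bacterial lipopolysaccharide on macrophages, read 5.55, 5.18 and 5.43 with placebo and 15.1, 12.6 and 18.3 with testosterone and rose by 1.46 ± 0.15 (limma, adjusted p = 0.00352). The rises of Mrc1 at 1.11, C1qa at 0.77 and C1qb at 0.64 were lost without most pools (adjusted p = 0.0515 to 0.121), including all placebo pools and testosterone A and C. B2m, the invariant chain of class I MHC molecules, rose by 0.996 ± 0.0901, from 125, 131 and 133 to 258, 253 and 268, as the only call among 26 probes of the interferon and antigen presentation list. Lymphocyte markers gave 0 calls of 16 in limma, 0 at an unadjusted p under 0.05 in either direction, and 0 higher and 1 lower in the joint fit. Endothelial markers gave 0 of 9 in limma, 0 higher and 2 lower at an unadjusted p under 0.05 and 0 in the joint fit.

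Growth and housekeeping lists held few calls. Of 28 probes of DNA replication and mitosis 0 were called by limma (3 higher and 3 lower at an unadjusted p under 0.05, 1 and 3 in the joint fit), and the median was 0.01. Pcna, the replication clamp, read 13.8, 12.4 and 14.1 with placebo and 18.2, 14.8 and 17.5 with testosterone and was not called (limma, adjusted p = 0.186). Of 58 ribosomal protein probes 0 were called (4 higher and 2 lower at an unadjusted p under 0.05, 0 in the joint fit), with a median of -0.06. Of 52 probes of oxidative phosphorylation 0 rose and 1 fell, Atp5j at -0.74, a call lost when any 1 pool was left out (adjusted p = 0.0592 to 0.111).

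The remaining lists held few probes or few calls. Of 25 probes of immediate early and heat shock genes 2 rose and 0 fell, with a median of 0.14: Egr2, a transcription factor induced by growth factors, by 1.47 ± 0.26, a call lost when any placebo pool or testosterone pool C was left out (adjusted p = 0.0583 to 0.0886), and Hspe1, a mitochondrial chaperonin, by 0.49 ± 0.10, lost when any 1 pool was left out (0.0637 to 0.130). Of 9 clock genes Bhlhe40, a repressor of the clock, rose by 1.05 ± 0.13, from 2.01, 2.21 and 1.92 to 4.11, 4.56 and 4.8, with a list median of 0.07. The clock list had 1 higher and 2 lower at an unadjusted p under 0.05, and 1 and 2 in the joint fit. With isolated low values left out it had 1 higher and 2 lower calls and a median of -0.16. Of 23 probes of polyamine and amino acid metabolism Glul, glutamine synthetase, rose by 0.61 ± 0.11 and Asns, asparagine synthetase, fell by 0.52 ± 0.10, with a median of -0.13. Both were lost when placebo pool A, B or C or testosterone pool A or C was left out, and Asns also without testosterone B (0.0602 to 0.116). Of 9 probes of cholesterol synthesis Sc5d, a sterol desaturase, rose by 0.85 ± 0.16, lost when any pool except testosterone B was left out (0.0545 to 0.0933), and the median was 0.10. Of 6 nerve and Schwann cell probes Pmp22, a myelin protein, rose by 0.56 ± 0.12, lost when any 1 pool was left out (0.0725 to 0.134), with a median of 0.08. The nerve list had 1 higher and 2 lower at an unadjusted p under 0.05, and 1 and 2 in the joint fit. Its lowest change was -1.67, and 2 probes were higher and 2 lower in every testosterone pool. Of 15 nuclear receptor coregulators 0 rose and Foxo1 fell, with a median of 0.05. Of 4 red cell probes 0 were called by limma, 0 at an unadjusted p under 0.05 and 0 in the joint fit.

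**Figure D4:**
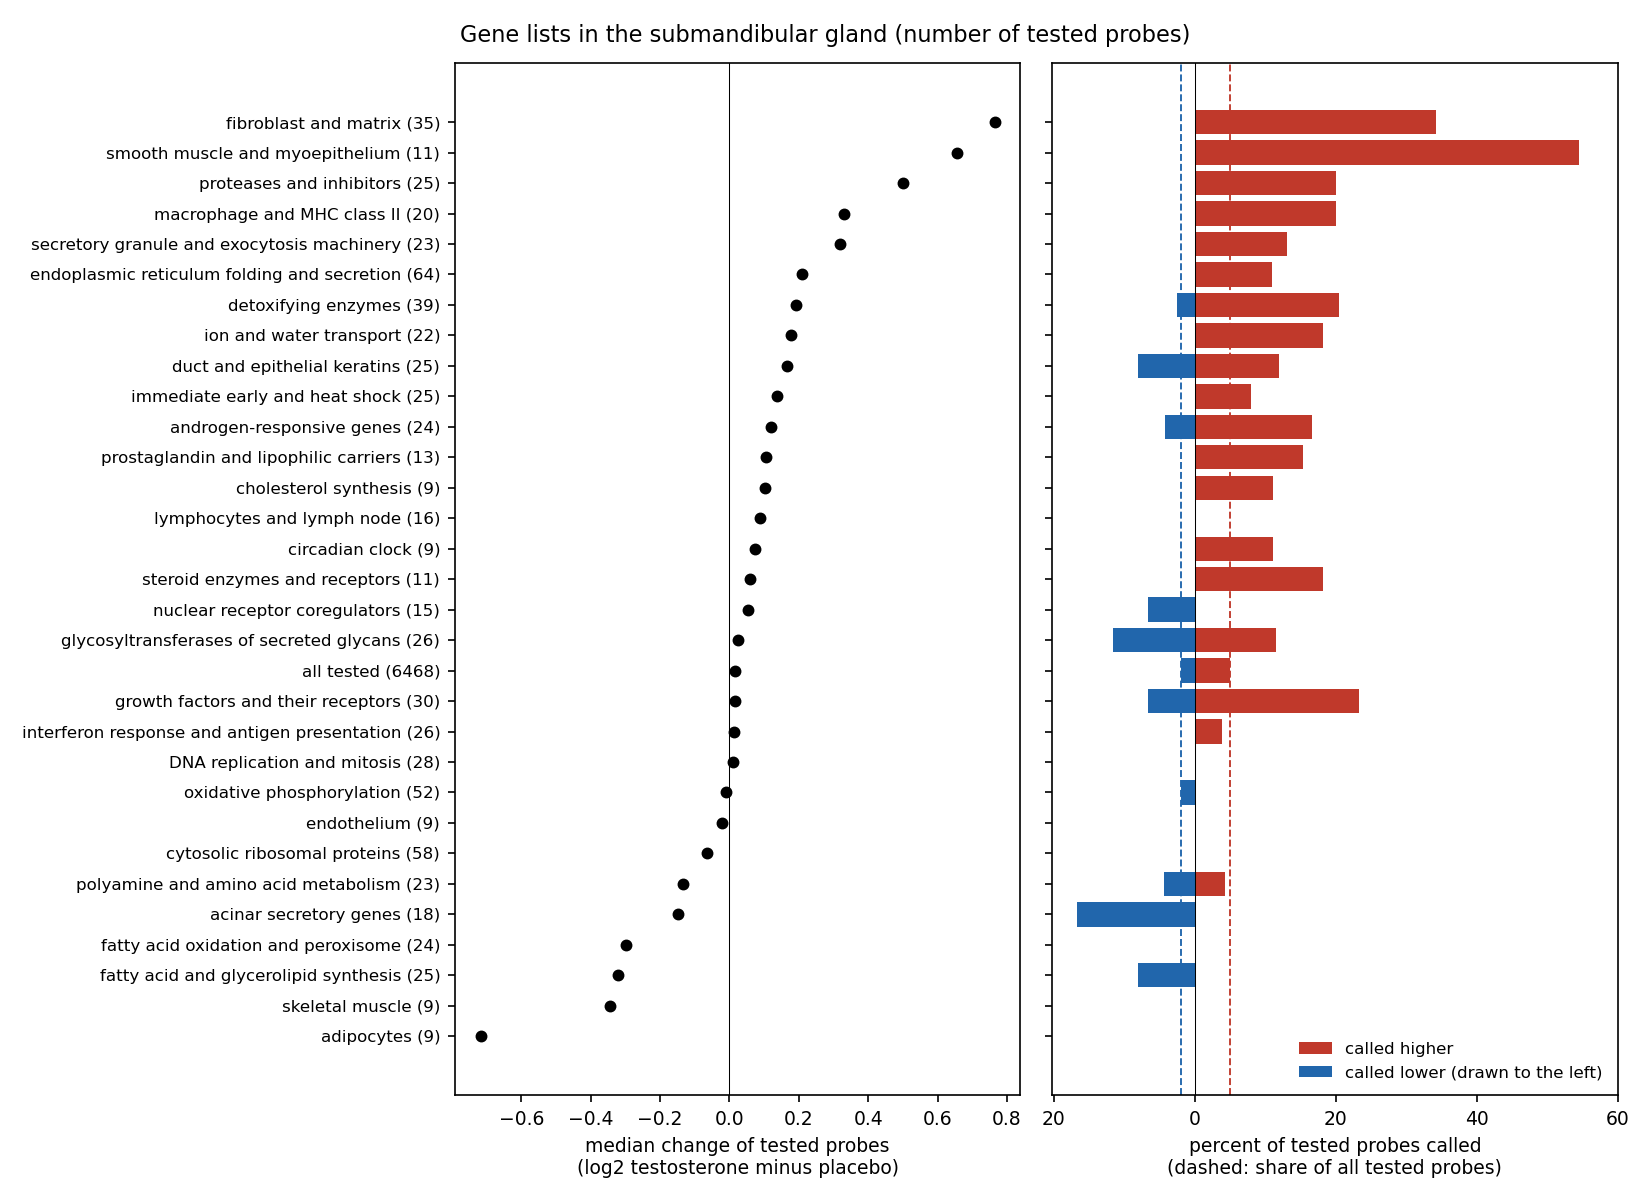
Median change of the tested probes (left, log2 testosterone minus placebo) and percent called higher (red) and lower (blue, drawn to the left). The rows are the gene lists with at least 9 tested probes and, as a further row, all tested probes, with the number of probes in brackets. Dashed lines mark the 5.07% and 1.98% of all tested probes. The smooth muscle list at 6 of 11 and the matrix list at 12 of 35 reach farthest to the right, and the adipocyte list has the lowest median at -0.72 with no call.

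The response was then set against the other glands in a joint fit of all 18 arrays, which tests the difference of the changes. Of 6464 probes the submandibular change differed from the lacrimal change for 1636 (25.3%), and of 6423 from the meibomian change for 602 (9.37%). Among the 456 called submandibular probes 328 differed from the lacrimal gland, 316 from the meibomian gland and 250 from both. Those probes were chosen on the same submandibular arrays, so these shares are a description. The meibomian arrays also had a shorter range, with a highest value of 135 to 219 per array against 636 to 743 in the submandibular gland, and the bearing of this on the differences was not tested.

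Some leading genes responded in this gland with little change in the others. Slc4a4 changed by 3.76 here, 0.01 ± 0.20 in the lacrimal and 0.09 ± 0.20 in the meibomian gland, and both differences passed the test (limma, adjusted p = 7.67e-08 and 8.29e-07). Egf changed by 0.04 in the lacrimal and 0.13 in the meibomian gland (1.08e-06 and 5.87e-06). Other genes were shared with the lacrimal gland to a lesser degree: St6galnac2 changed by 3.01 there and Smr2 by 2.04, each below the submandibular change (0.00511 and 4.29e-06). Mdk changed by 4.95 in the lacrimal gland, and the difference from the submandibular change did not pass (0.0624). Gne fell here and changed by -1.43 there, with no difference called (0.806).

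Some contractile and matrix genes had the opposite sign in the lacrimal gland. Cnn1 changed by 1.13 here and -1.14 there, Myh11 by 1.11 and -1.27, Mgp by 1.27 and -1.16, and Timp3 by 1.48 and -0.71, and the differences passed the test (limma, adjusted p = 6.30e-08, 5.52e-06, 3.80e-07 and 3.30e-08). In the lacrimal gland Cnn1 read 11.4 ± 0.817 with placebo and 5.10 ± 0.645 with testosterone, where the submandibular gland went from 33.9 ± 2.73 to 74.4 ± 5.57. Others had the same sign there with no difference called: Sparc changed by 0.57 in the lacrimal gland, Col1a2 by 0.38 and Col1a1 by 0.04 (limma, adjusted p of the difference = 0.110, 0.194 and 0.0706). Sgk1 changed by 1.77 here and -0.83 there (2.70e-06). In the other direction Sox11, a developmental transcription factor, fell by 1.43 here, from 4.68, 5.13 and 4.97 to 1.67, 2.21 and 1.28, and changed by 4.23 in the lacrimal gland (3.76e-08).

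**Figure D5:**
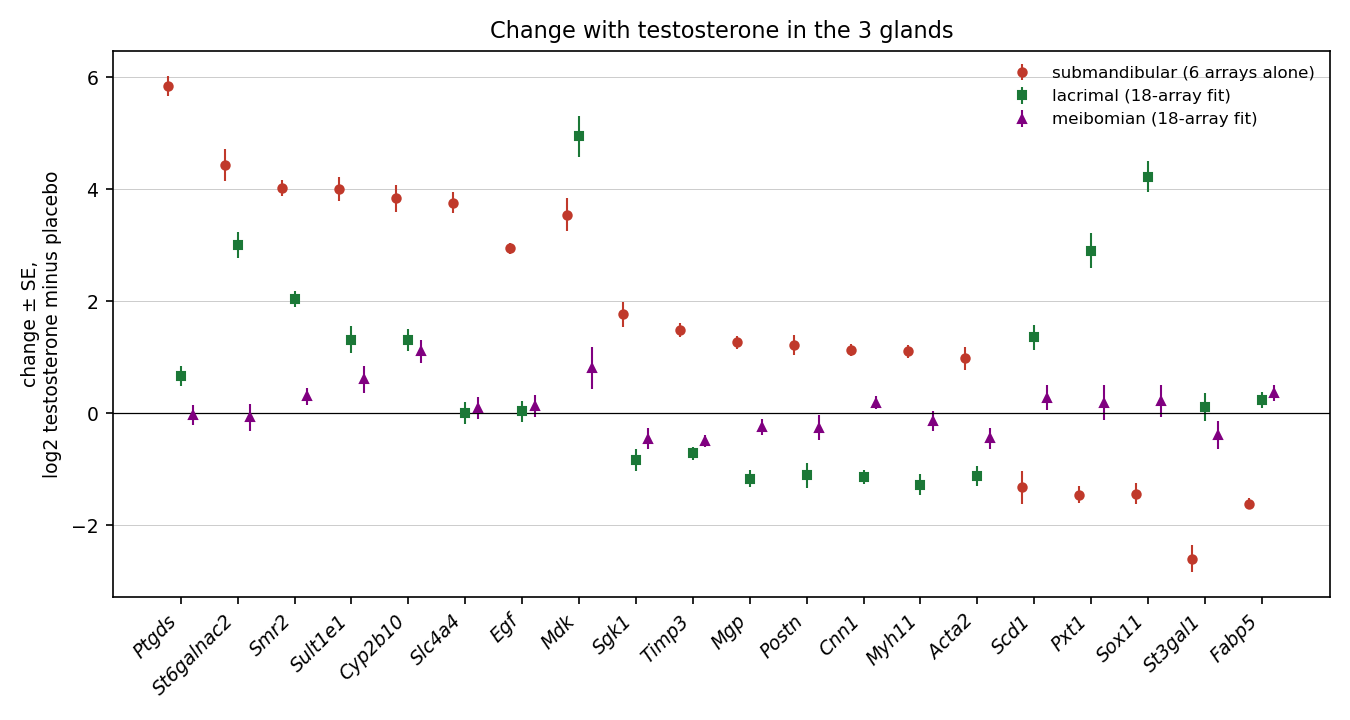
Change with testosterone ± SE (vertical axis, log2 testosterone minus placebo) of 20 genes in the submandibular gland (red circles, its 6 arrays alone), the lacrimal gland (green squares) and the meibomian gland (purple triangles), the latter from the fit of all 18 arrays. Ptgds, Slc4a4 and Egf stand apart in the submandibular gland at 5.85, 3.76 and 2.94, Cnn1 and Myh11 lie on opposite sides of 0 in the submandibular and lacrimal glands, and Sox11 is at -1.43 and 4.23.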

How the data were processed

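RNA of pooled glands was measured on 1-colour arrays, and the deposited values are each probe's intensity on a linear scale. Array medians lay near 0.94. How the authors corrected background and scaled arrays was not given in the sources used here. A value of -1, far below all others, was taken as missing, and other values below 0 were set to 0. The deposited scaling was kept. Groups follow the labels.

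Intensities were put on the scale log2(intensity + 0.230), where the offset equals percentile 10 of all positive values. A probe needed 2 or more values in each group and an intensity over its array's percentile 40 on 3 or more of the 6 arrays, so 35 probes fell out for missing values and 3997 as dim. The fit of the 6 arrays used limma 3.58.1 (R 4.3.3) with eBayes and a trend, and p-values were adjusted by Benjamini-Hochberg with a threshold of 0.05. All 18 arrays were fitted jointly, with 12 residual degrees of freedom, to test differences between glands. The fit was tested on simulated data. Symbols came from the platform annotation, which named 1 gene for 8983 probes, several for 1 and none for 1516. Of 71 genes with several tested probes 2 had a call, in neither case on all probes. Promoters came from RefSeq (GRCm38.p6), and figures were drawn with matplotlib.

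The genes, the 34 gene lists and the tests were chosen with earlier results of these data known. Genes named by rule were the 20 largest rises and 20 largest falls with 1 symbol and pools apart, and a few fixed genes. For each list the rule took at most 5 called members, or 3 of its brightest where none was called. It also took the 10 largest changes that differed from both other glands, and a few with pools apart and no call. Not all genes taken by the rule are described in the text. Further called members of lists, tissue markers and the genes Tgfa, Dcn, Lum and Slc12a2 were named after their values were seen. Alternatives covered the offset, the filter, the scaling, the variance model, array weights, the threshold, the treatment of -1, the pool letter as a block and each pool left out. Leaving out single low values was added after seeing the data.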

Additional observations from a re-analysis of the deposited data

Results flagged for a closer look

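The changes of 10 leading genes differed, by the test of the difference itself in the joint limma fit of 18 arrays, between the submandibular gland and both other glands. Each difference is given as the submandibular change minus that of the other gland, on the log2 scale. For Ptgds it was 5.19 against the lacrimal gland and 5.89 against the meibomian gland. For St6galnac2 it was 1.42 and 4.51, for Smr2 1.98 and 3.72, and for Sult1e1 2.69 and 3.40. Cyp2b10 differed by 2.53 and 2.73, Slc4a4 by 3.76 and 3.67, and Klrg2 by 3.46 and 3.49. Tmem37 differed by 3.35 and 3.42, Egf by 2.91 and 2.81, and Sgca by 3.07 and 2.65. The genes were picked for large submandibular changes, and the differences use the same arrays.

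Of the genes chosen by the naming rule, a further 8 were called with a change of at least 0.9 in size, had a change of at least 1 of opposite sign in the lacrimal gland, and passed the test of the difference. Others with a smaller lacrimal change, such as Timp3, Tagln and Sgk1, also had opposite signs. Among the 8 the differences were 2.43 for Mgp, 2.33 for Postn, 2.27 for Cnn1, 2.38 for Myh11 and 2.10 for Acta2, all higher here and lower there. Scd1, lower here and higher in the lacrimal gland, differed by -2.68, Sox11 by -5.66 and Pxt1 by -4.36. Acta2, Postn and Scd1 lost their submandibular call in at least 1 fit that left out a pool. Lacrimal pools differed in the salivary markers they carried, and what this adds to the differences was not tested.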

How the results depend on the processing

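The count of 456 called probes was 450 to 509 with another offset, a filter at the array median, quantile or 75th percentile scaling or a robust variance model, 338 without a filter, 441 without a trend, 447 with -1 as 0 and 529 with single low values left out. It moved to 1063 in the joint fit of 18 arrays, of which 442 were among the 456, to 772 with array weights, to 145 at a threshold of 0.01 and 842 at 0.1, and from 164 to 398 when 1 pool was left out. Leaving out a pool leaves 3 residual degrees of freedom. The pool letters are not known to pair the samples. The deviations of same-lettered pools correlated at 0.14, -0.065 and 0.082, which cannot show whether the pools were paired. With the letter as a replicate block 168 probes were called. The differences from the lacrimal gland numbered 1178 to 1811 and those from the meibomian gland 497 to 762 over the alternatives. Of the named genes 52 passed in every alternative. Among the named genes the sign turned for 5 near 0, none of them called: Rpl6 was -0.018 and Hmgb2 -0.086 with quantile scaling, and Hmgb2 -0.0013 with 75th percentile scaling. When 1 pool was left out, Hmgb2 ran from -0.20 to 0.21, Kdr from -0.14 to 0.16, Jchain from -0.29 to 0.067 and Alas2 from -1.40 to 0.092. Arrays give no read depth, and dim probes, at or under the offset, give changes whose size depends on it.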

Other observations

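The genes here were noticed after the values were seen, and they are given as values with no test beyond the fit over all probes. Receptors and ligands of the GDNF family, which guide nerves, moved in different directions: Gfra3, the artemin co-receptor, rose from 0.765 ± 0.108 to 5.93 ± 1.19 (change 2.62 ± 0.18), Nrtn, neurturin, rose by 0.50 ± 0.11 (limma, adjusted p = 0.0474), and Ret, the shared signalling receptor, fell by 0.89 ± 0.15 (0.0202). Of the neuropeptide genes 5 were picked because they were called, Tac1 at 1.67 ± 0.19, Npff at 1.55 ± 0.29, Nmb at 1.28 ± 0.20, Cck at 0.92 ± 0.19 and Penk at 0.82 ± 0.17. Tac1, Npff and Penk were dim, with placebo means of 0.536, 0.586 and 0.762, below the array medians. How many neuropeptide genes were tested was not counted, so their share of calls is not known. The cytokine Tnfsf12 and its receptor Tnfrsf12a rose by 1.51 ± 0.17 and 1.56 ± 0.17. Tac1, Gfra3, Tnfsf12 and Tnfrsf12a kept their call whichever pool was left out. Nrtn, Ret, Npff, Nmb, Cck and Penk lost it without placebo pool B or C or testosterone pool A or C, and some of them without others (adjusted p up to 0.142).

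Of 9 tested probes of annexins, which bind membranes in the presence of calcium, 4 rose and 0 fell, by 0.56 to 1.18, where 5.07% of all tested probes were called higher. They included Anxa2 from 6.01 ± 0.389 to 13.9 ± 0.483 and Anxa1 from 35.6 ± 0.844 to 56.4 ± 7.31. Of 5 tested probes of S100a genes, which encode calcium-binding proteins, 4 rose, by 0.66 to 1.10, with S100a13 from 9.92 ± 1.01 to 21.5 ± 2.81. The 3 tested alpha-mannosidases, which remove mannose from glycans, all rose, Man2b1 by 1.47 ± 0.15, Man2a1 by 1.36 ± 0.16 and Man1a by 1.29 ± 0.16. The beta-tubulins Tubb6 and Tubb2b rose by 2.23 ± 0.17 and 1.91 ± 0.15, as 2 of 4 tested. Of 12 CC chemokine probes Ccl8, Ccl9 and Ccl22 rose by 1.49, 1.03 and 0.92 while Ccl4 fell by 0.73, from 148.5 ± 10.1 to 89.8 ± 9.95. Anxa2, S100a13, the mannosidases and both tubulins kept their call whichever pool was left out. Without placebo pool B it was lost for the other annexins and S100a genes and for all 4 chemokines, most of them without further pools too (adjusted p = 0.0541 to 0.130).

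A few probes without a gene name changed as much as the leading genes. One rose from 0.520 ± 0.0666 to 24.4 ± 9.0 (4.97 ± 0.30), second only to Ptgds among called probes, and another from 183 ± 15.7 to 666 ± 25.9 (1.86 ± 0.11).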
